A study of Mus musculus with 12 samples.

Results

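Genes with alternative promoters start transcription at more than 1 place, and each start has its own surrounding CpG sites. The genes described here have at least 2 promoters with different methylation values in colon epithelial cells of mice with and without induced Dnmt3b. They were found in the short-fragment libraries: a gene was taken when it had 2 or more RefSeq promoter rows in all 6 libraries and at least 2 of these rows did not hold the same values throughout. Rows of a gene with identical values in all 6 libraries were counted as 1 promoter. Of the 10027 genes measured in all 6 short-fragment libraries, 958 had 2 or more promoter rows. In 859 of them the rows were identical, and 99 genes with 206 separate promoters remained, of 10134 separate promoters in all. Among the 99 genes, 94 had 2 separate promoters, Gnas, Igf2 and Sept9 had 3, Bdnf had 4 and Plec1 had 5. The genes were thus chosen by the promoter methylation values of the 6 short-fragment libraries, without use of the treatment groups. A gene could enter through a difference seen in induced mice alone.

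Colon epithelium was taken from C57BL/6 mice fed chow, 3 with induced Dnmt3b and 3 controls. For the induced mice doxycycline was added to the drinking water at 0.5 g/l over 3 months, with a change of water every 3 days, and the controls were given regular water, so that induction of Dnmt3b and doxycycline itself cannot be told apart. The labels give neither the promoter that drives the Dnmt3b transgene nor whether control mice carried it. Genomic DNA was cut with MspI, which cuts at CCGG, and each mouse gave a library of short fragments (40 to 120 nt) and one of long fragments (120 to 220 nt), 12 libraries in all.

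Dnmt3b is a DNA methyltransferase that adds methyl groups to CpG sites that carry none. Most promoters that lie in CpG islands stay unmethylated in normal tissue, and methylation of such a promoter is usually linked to silence of the transcripts that start there. A gene with several promoters can therefore have some starts in a methylated and others in an unmethylated state. Textbook cases include Gnas, an imprinted locus with several promoters of different allelic methylation, Bdnf and the cytolinker gene for plectin, each with a series of alternative first exons.

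To show what separate promoters look like in sequence, the 250 bases before each listed start are printed for 3 genes in which the promoters took different courses. They come from RefSeq promoter sequences of GRCm38.p6, are written 5′ to 3′ on the strand of the gene, and carry CpG sites in capitals. The table does not tie a start to a promoter accession, so which of the starts gained methylation is not known from it. Lrrfip1 had 2 listed starts 54717 bases apart, with 26 and 14 CpG sites in these windows.
Lrrfip1, start 1, chr1:90998477-90998726, plus strand: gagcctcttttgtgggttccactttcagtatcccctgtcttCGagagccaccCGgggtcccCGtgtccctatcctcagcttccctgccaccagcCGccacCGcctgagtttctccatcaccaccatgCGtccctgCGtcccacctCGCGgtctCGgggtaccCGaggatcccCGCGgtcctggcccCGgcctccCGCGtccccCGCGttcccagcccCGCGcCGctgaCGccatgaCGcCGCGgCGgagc
Lrrfip1, start 2, chr1:91053194-91053443, plus strand: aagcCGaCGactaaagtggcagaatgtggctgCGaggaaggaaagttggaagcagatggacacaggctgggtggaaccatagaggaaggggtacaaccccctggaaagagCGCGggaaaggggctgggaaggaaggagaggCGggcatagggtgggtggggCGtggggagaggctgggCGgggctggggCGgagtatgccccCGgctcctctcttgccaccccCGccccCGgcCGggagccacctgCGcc

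Nfatc2 had 2 listed starts 11292 bases apart, with 19 and 16 CpG sites. Fbxl12 had 2 listed starts only 1961 bases apart, with 19 and 15 CpG sites.
Nfatc2, start 1, chr2:168601658-168601907, minus strand: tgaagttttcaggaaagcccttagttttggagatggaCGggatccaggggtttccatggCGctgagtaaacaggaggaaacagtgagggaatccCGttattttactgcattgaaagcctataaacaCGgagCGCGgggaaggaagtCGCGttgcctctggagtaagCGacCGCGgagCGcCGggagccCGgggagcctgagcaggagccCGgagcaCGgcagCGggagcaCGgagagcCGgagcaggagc
Nfatc2, start 2, chr2:168590366-168590615, minus strand: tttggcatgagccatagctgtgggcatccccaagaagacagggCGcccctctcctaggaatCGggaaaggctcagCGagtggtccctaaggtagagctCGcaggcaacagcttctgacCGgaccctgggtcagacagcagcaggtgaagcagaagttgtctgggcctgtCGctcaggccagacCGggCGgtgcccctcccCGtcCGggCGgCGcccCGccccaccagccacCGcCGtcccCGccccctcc
Fbxl12, start 1, chr9:20644768-20645017, minus strand: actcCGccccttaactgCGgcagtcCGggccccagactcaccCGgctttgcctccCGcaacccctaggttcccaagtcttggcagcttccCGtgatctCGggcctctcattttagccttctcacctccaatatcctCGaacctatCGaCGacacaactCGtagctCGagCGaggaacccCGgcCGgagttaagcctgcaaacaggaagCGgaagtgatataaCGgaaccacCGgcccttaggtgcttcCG
Fbxl12, start 2, chr9:20642807-20643056, minus strand: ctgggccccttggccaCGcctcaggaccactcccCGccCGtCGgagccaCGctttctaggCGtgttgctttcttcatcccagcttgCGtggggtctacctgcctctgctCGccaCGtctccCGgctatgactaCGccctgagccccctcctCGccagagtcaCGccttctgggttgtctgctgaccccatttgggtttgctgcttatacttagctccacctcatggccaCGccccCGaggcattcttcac

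All 6 windows hold at least 1 CCGG, the sequence at which MspI cuts. The sequence table held 86 of the 99 genes. Listed starts lay over 2000 bases apart in 55 of these (64.0%), against 67 of 685 genes with identical rows (9.78%). Only 1 start was listed for 19 of the 86 genes, and over the 67 with 2 or more the span between outer starts had a median of 17951 bases and a range of 215 to 481629 bases. Of the 204 listed starts of the 86 genes 76.0% had a CCGG within the 250 bases, against 47.1% of all 32851 listed starts. The median number of CpG sites was 15 against 6. The 99 genes had to be measured in MspI libraries and the listed starts did not, so this is a description of the choice. Of the 206 promoter accessions 198 were still listed under the same gene in the RefSeq table. One of the others, NM_025462 of Ece2, is now listed under the gene Eef1akmt4. In short fragments 21 of the 206 promoters held the same values as a promoter of another gene.

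Values below are promoter methylation levels, the mean methylated fraction of the CpG sites measured at a promoter, in percent. Changes are induced minus control in percentage points, with limma as the test and Benjamini-Hochberg adjustment over all promoters. A promoter is said to have risen or fallen where the adjusted p was under 0.05. In the short fraction 94 of the 206 promoters rose (45.6%), 1 fell and 111 did not pass, where over all 10134 promoters 27.7% rose and 0.0888% fell. Genes whose rows were all at 0 could not be chosen, so the share among the 206 is a description. With each library centred on its median difference, 97 promoters were higher and 40 lower in induced mice, so that a change here is one on the scale as deposited. Of the 859 promoters of genes with identical rows 201 rose (23.4%). The median change was 5.86 points for the 206 promoters and 0.503 points over all promoters, and the median rise of the 94 was 48.8 points. In control mice 184 of the 206 promoters (89.3%) were under 10% methylated, close to 90.3% of all promoters. In induced mice 61 (29.6%) were at 50% or more, against 18.7% of all.

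By gene, all separate promoters rose in 33 genes, some but not all rose in 23, and none rose in 43. To ask whether promoters of a gene moved apart, the difference between 2 of them was taken in each mouse and compared between induced and control mice, for each of the 119 pairs of separate promoters. The difference changed in 48 pairs (40.3% of pairs tested, limma adjusted over all pairs), which belonged to 41 of the 99 genes (41.4%). Pairs were taken because their values differed in these same libraries, also where only induced mice differed, so these shares describe the chosen genes. The 3 induced and the 3 control differences did not overlap in any of the 48. The call itself favours such a separation, so it adds no support to these pairs. The sizes in the 48 pairs ran from 1.26 to 71.7 points with a median of 32.1 points. Over all 119 pairs, passed or not, 33 pairs in 27 genes differed by more than 20 points.

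**Figure D1:**
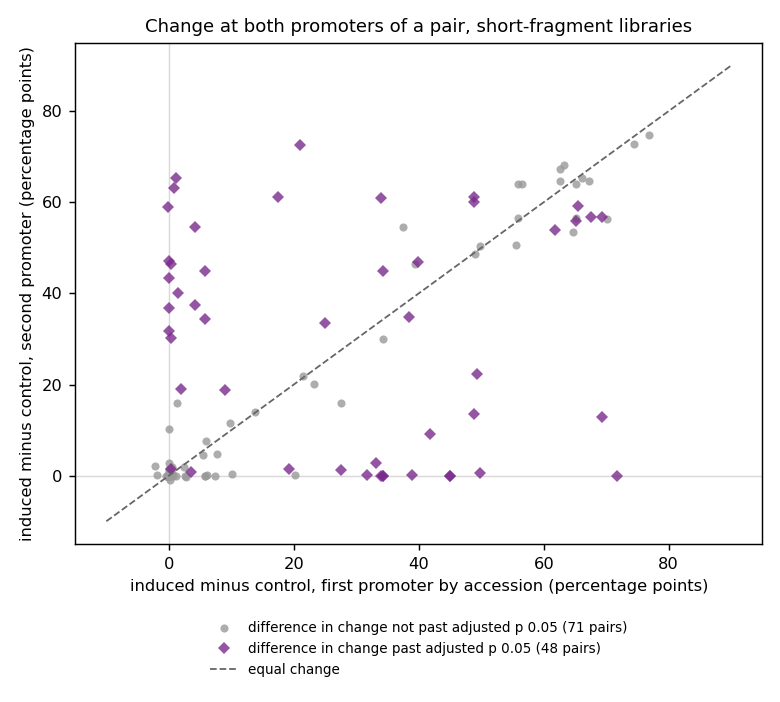
Induced minus control change (percentage points) of the first promoter by accession on the horizontal axis and of the second on the vertical axis, for 119 pairs of separate promoters in short fragments. Purple diamonds are the 48 pairs whose changes differed, by 1.26 to 71.7 points, and many of them lie along an axis, where 1 promoter moved and the other hardly did. Grey circles are the other 71 pairs.

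In 23 genes some promoters rose and others did not, and 21 of these genes had a pair that passed the test of the difference. The exceptions, named after their values were seen, were AU040320 and Tsc22d1. Of the 26 promoters in the 23 genes that did not rise, 22 stayed under 10% in induced mice and 15 under 1%.

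Arhgef7 (gene 54126), a guanine nucleotide exchange factor for Rac and Cdc42, had the largest difference between promoters. Its promoter NM_001113517 was at 0.15%, 1.29% and 1.14% in control mice 1, 2 and 3 and at 74.7%, 63.6% and 79.3% in induced mice (72.5% ± 8.08 against 0.86% ± 0.619, SD, n = 3, limma adjusted p = 0.00061). The promoter NM_001113518 was at 0.03% to 0.14% in control and at 0%, 0.18% and 0% in induced mice (adjusted p = 0.876). All 3 induced mice were thus high at the first promoter and near 0 at the second, and the changes differed by 71.7 points (SE 4.37, adjusted p = 0.000662).

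Dlgap4, which encodes a scaffold protein of the postsynaptic density, showed the same picture. NM_146128 was at 6.14%, 6.31% and 3.56% in control and at 60.04%, 63.6% and 82.0% in induced mice, with no overlap. NM_001042487 stayed at 1.71% or less in all 6 mice. The difference in change was 62.4 points (SE 5.97, adjusted p = 0.0018).

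Ece2 encodes a metalloprotease that processes endothelin precursors. Its promoter NM_139293 was at 3.01%, 5.46% and 8.68% in control and at 61.4%, 62.6% and 69.9% in induced mice, and NM_025462 was at 0.3% in control mouse 1 and at 0 in the other 5. The changes differed by 59.0 points (SE 2.93, adjusted p = 0.000567). Since NM_025462 is now assigned to Eef1akmt4, this pair sets a promoter of Ece2 beside that of another gene. It is counted here as deposited, among the genes, the called pairs and the pairs that passed in both fractions.

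Aldh7a1, an aldehyde dehydrogenase of lysine breakdown, had NM_138600 at 6.69%, 5.95% and 0% in control and at 44.1%, 78.8% and 85.7% in induced mice. NM_001127338, whose values are also those of the gene Phax, stayed between 0% and 2.34%. The difference of 64.1 points (SE 11.8, adjusted p = 0.014) did not pass on leaving out control mouse 1, control mouse 3 or induced mouse 2 (adjusted p = 0.0501 to 0.0507). The rise of NM_138600 itself (adjusted p = 0.0183) did not pass on leaving out any mouse but induced mouse 1 (adjusted p = 0.0501 to 0.0784).

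Fbxl12, an F-box protein of SCF ubiquitin ligases whose 2 starts are printed above, held NM_001002846 at 0 in all 6 mice. NM_013911 was at 5.08%, 0.89% and 0% in control and at 44.3%, 55.4% and 47.4% in induced mice (difference 47.0 points, SE 3.39, adjusted p = 0.00106). The first promoter was listed at 0 throughout, and at the second no induced mouse overlapped a control mouse.

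Nfatc2 and Nfatc1 encode calcineurin-regulated transcription factors. In Nfatc2 the promoter NM_001037178 was at 1.45%, 0.66% and 0.25% in control and at 36.8%, 58.1% and 46.7% in induced mice, and NM_001037177 reached 0.92% in 1 induced mouse and was at 0 in the other 5 mice (difference 46.1 points, SE 5.71, adjusted p = 0.00392). In Nfatc1, named after its values were seen, NM_198429 went from 0.61% ± 1.02 to 32.4% ± 3.42 (SD, n = 3) and NM_016791 stayed at 0.26% or less (difference 31.7 points, limma adjusted p = 0.000662). Both genes had 1 promoter that rose and 1 that stayed near 0.

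Lrrfip1, printed above, had NM_001111312 at 0.51%, 0% and 0.08% in control and at 52.1%, 42.5% and 36.0% in induced mice, while NM_001111311 was at 0.1% or less throughout (difference 43.3 points, SE 4.33, adjusted p = 0.00205). The homeobox gene Hoxa10 had NM_008263 at 1.65%, 2.55% and 1.64% in control and at 40.4%, 45.0% and 31.1% in induced mice, and NM_001122950 at 0 in all 6 (difference 36.8 points, SE 3.79, adjusted p = 0.00217). Neither gene had an induced mouse whose low promoter exceeded 0.1%.

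Pfdn4, a subunit of the prefoldin chaperone, had NM_001013369 at 2.2%, 0% and 1.04% in control and at 24.8%, 41.6% and 53.8% in induced mice, values that are also those of the gene Cyp24a1. NM_001110152 stayed at 0.67% or less. The difference of 38.8 points (SE 7.74, adjusted p = 0.0169) was lost without control mouse 1, 2 or 3 or induced mouse 2 (adjusted p = 0.0576 to 0.0604), as was the rise of NM_001013369 (adjusted p = 0.0239, and 0.0837 to 0.0915 without these mice).

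**Figure D2:**
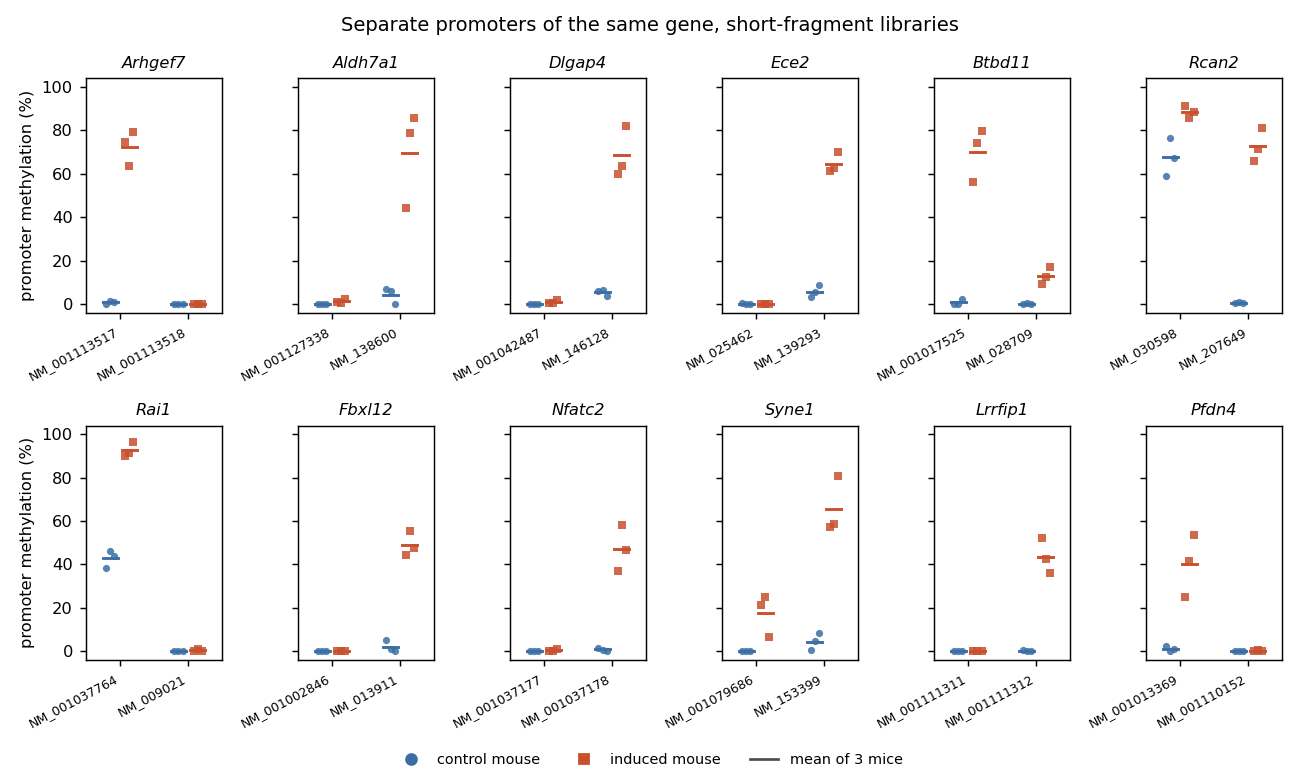
Promoter methylation (%) of the 2 separate promoters of 12 genes in short fragments, control mice as blue circles and induced mice as orange squares, with the mean of 3 mice as a line. In Arhgef7 the induced mice sit between 63.6% and 79.3% at 1 promoter and at or under 0.18% at the other, and in Rcan2 the promoter near 0 in control mice reached 65.9% to 81.3%.

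In Btbd11 both promoters rose, by different amounts. It had NM_001017525 at 0%, 0% and 2.39% in control and at 56.2%, 74.3% and 79.96% in induced mice, and NM_028709 at 0.46% or less in control and at 9.36%, 12.5% and 17.2% in induced mice. The changes differed by 56.6 points (SE 4.85, adjusted p = 0.00158). The smaller rise (adjusted p = 0.0123) was lost without any 1 of the control mice (adjusted p = 0.053 to 0.0573). Syne1, which encodes the nuclear envelope protein nesprin 1, had its promoter NM_153399 at 0.37%, 4.55% and 8.33% in control and at 57.3%, 58.6% and 81.0% in induced mice. NM_001079686 was at 0.11% or less in control and at 21.4%, 24.9% and 6.44% in the induced group (adjusted p = 0.0842, not passed). The difference of 43.7 points (adjusted p = 0.0463) did not pass on leaving out any mouse but induced mouse 3 (adjusted p = 0.0607 to 0.138).

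Some genes had promoters at different levels already in control mice. In 7 pairs from 6 genes (Lpin1, Gnas, Limk2, Prkcz, Rcan2 and 9030409G11Rik) 1 promoter was at 50% or more and the other under 10% in control mice, and 6 of these pairs had that split in induced mice too. Control means lay 10 points or more apart in 19 pairs, of which 16 had the same order of means in induced mice.

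Lpin1, a phosphatidate phosphatase of lipid synthesis, had NM_015763 at 86.4%, 77.4% and 95.4% in control and at 98.2%, 96.0% and 95.3% in induced mice, and NM_172950 at 0.89% or less in all 6. Prkcz encodes an atypical protein kinase C and has an internal promoter for a shorter kinase made in brain. Its NM_001039079 was at 77.7%, 85.1% and 62.4% in control and at 94.8%, 94.1% and 96.7% in induced mice, and NM_008860 stayed at 0.29% or less. None of these 4 promoters passed, and the difference in change passed in neither gene (9.68 points, SE 4.92, adjusted p = 0.217 for Lpin1, and 20.05 points, SE 6.20, adjusted p = 0.0565 for Prkcz).

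The gene 9030409G11Rik had NM_001109684 at 69.6%, 73.1% and 66.8% in control and at 85.7%, 97.0% and 84.4% in induced mice. Its other promoter, NM_001109685, went from 0.1% ± 0.0889 to 1.55% ± 0.637 (SD, n = 3). The difference of 17.7 points (SE 4.10, limma adjusted p = 0.0257) was lost without control mouse 1, 2 or 3 or induced mouse 1 (adjusted p = 0.0548 to 0.0873), and the rises of the single promoters (adjusted p = 0.0292 and 0.0431) were each lost without at least 4 of the 6 mice in turn (adjusted p = 0.0555 to 0.145).

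Rcan2, a regulator of calcineurin, was the gene of these without that split in induced mice. NM_030598 was at 59.1%, 76.6% and 67.2% in control and at 91.3%, 85.9% and 88.6% in induced mice, and NM_207649 went from 0.38%, 0.7% and 0.43% to 65.9%, 71.7% and 81.3%. The change of the lower promoter was larger by 51.5 points (SE 6.69, adjusted p = 0.0044). The rise of NM_030598 (adjusted p = 0.04) did not pass on leaving out control mouse 1, control mouse 3 or any induced mouse (adjusted p = 0.0657 to 0.134).

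Rai1, named for its induction by retinoic acid, had a promoter at an intermediate level in control mice. NM_001037764 was at 38.4%, 46.1% and 43.8% in control and at 90.1%, 91.5% and 96.3% in induced mice, and NM_009021 at 1.03% or less in all 6 (difference 49.4 points, SE 2.81, adjusted p = 0.000662). Limk2, a kinase of the actin regulator cofilin, was the only one of the 43 genes without a risen promoter in which a pair passed, and is named after its values were seen. Its NM_173053 was at 55.9%, 45.7% and 69.99% in control and at 80.5%, 85.7% and 95.9% in induced mice without passing (adjusted p = 0.0537), and NM_010718 stayed between 6.16% and 9.75%. The difference of 29.8 points (adjusted p = 0.0448) was lost without each of 5 of the 6 mice in turn (adjusted p = 0.0663 to 0.137), the exception being control mouse 3.

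In 33 genes all separate promoters rose, and 19 of these had a pair whose changes differed. Pairs that went from under 10% to 50% or more at both promoters numbered 20 in 13 genes. Their changes differed by 0.57 to 12.45 points, and 7 of the 20 passed the test. Developmental regulators were frequent among these genes. Tcfap2a, which encodes the factor AP-2 alpha, had NM_001122948 at 0.27%, 3.16% and 2.55% in control and at 68.5%, 76.5% and 91.4% in induced mice, and NM_011547 at 1.87%, 3.6% and 2.78% and at 58.7%, 85.6% and 88.3%. Both promoters rose (adjusted p = 0.00126 and 0.00388) and their changes differed by 2.01 points (SE 5.15, adjusted p = 0.857).

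The LIM homeobox genes Lhx9 and Lhx6 had both promoters at 67.4% to 76.6% on average in induced mice. In Lhx9, NM_001025565 was at 2.34%, 0% and 0% in control and at 93.0%, 57.3% and 75.4% in induced mice, and NM_010714 was at 1.43%, 2.18% and 8.1% and at 82.0%, 61.2% and 86.8%. In Lhx6 the 2 promoters held the same value in 5 of 6 mice and differed only in induced mouse 3 (78.5% and 76.1%).

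Of the list of developmental transcription factors 13 of 14 promoters in 7 of the 99 genes rose, the exception being NM_001122950 of Hoxa10, with a median change of 65.8 points. Over all 150 measured promoters of that list 127 rose, with a median of 59.3 points. Tbx4, a T-box factor of limb and lung, had NM_011536 at 3.16% ± 1.55 and 73.2% ± 7.30 and NM_172798 at 11.1% ± 3.29 and 67.4% ± 22.9 (control and induced, SD, n = 3). The rise of NM_172798 (limma adjusted p = 0.0327) was lost without control mouse 1, 2 or 3 or induced mouse 2 (adjusted p = 0.103 to 0.117). Tcfap2b, the AP-2 beta gene, rose at both promoters and more at NM_009334, by 11.3 points (adjusted p = 0.0244), which was lost without any control mouse or without induced mouse 2 (adjusted p = 0.0604 to 0.0763).

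Genes methylated in human colorectal cancer were represented by Bdnf, Hic1, Igf2 and Sept9, and all 12 of their separate promoters rose, as did 46 of the 54 measured promoters of the whole list. Hic1, a transcriptional repressor, had NM_001098203 at 3.18%, 3.93% and 5.18% in control and at 64.4%, 67.6% and 76.6% in induced mice, and NM_010430 at 0.48%, 1.22% and 2.46% and at 57.6%, 58.8% and 65.3%. The difference of 6.23 points (adjusted p = 0.0169) was lost without any control mouse or without induced mouse 2 (adjusted p = 0.0573 to 0.0607).

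Bdnf encodes a neurotrophin whose alternative first exons are used in different brain regions. Its 4 promoters were between 1.46% and 6.94% in control mice and between 53.4% and 73.5% in induced mice, with mean rises of 55.9 to 65.1 points. Of the 6 pairs only NM_001048139 and NM_001048141 differed, by 9.19 points (adjusted p = 0.0448), and this call was lost without any mouse but induced mouse 3 (adjusted p = 0.0983 to 0.129). Igf2, an imprinted growth factor, had 3 promoters between 0.03% and 4.5% in control and between 55.5% and 79.9% in induced mice. No pair of them passed in the short fraction (differences of 1.97 to 4.64 points, adjusted p = 0.0568 to 0.139).

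Sept9 encodes a septin, and methylation of its human counterpart is used as a blood test for colorectal cancer. Its 3 promoters covered the whole range. NM_001113486 was at 0%, 1.32% and 2.15% in control and at 6.05%, 5.58% and 4.63% in induced mice. NM_001113487 was at 13.5%, 5.96% and 11.5% and at 46.8%, 42.8% and 53.9%, and NM_001113488 was at 27.4%, 30.01% and 44.6% and at 71.0%, 95.2% and 99.5%.

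The order of the 3 Sept9 promoters was the same in all 6 short-fragment libraries. NM_001113487 gained 33.2 points more than NM_001113486 (SE 4.05, adjusted p = 0.00386), and NM_001113488 gained 50.3 points more (SE 9.61, adjusted p = 0.015). NM_001113487 and NM_001113488 differed by 17.04 points (adjusted p = 0.259). The difference of 50.3 points did not pass on leaving out control mouse 1, control mouse 2 or induced mouse 2 (adjusted p = 0.0548 to 0.0604). The rise of NM_001113486 (adjusted p = 0.0121) was lost without control mouse 2 and without induced mouse 2 (adjusted p = 0.05 to 0.0511). That of NM_001113488 (adjusted p = 0.0155) was lost without control mouse 1, control mouse 2, induced mouse 2 or induced mouse 3 (adjusted p = 0.0508 to 0.069).

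Plec1, the plectin gene, had the most separate promoters and contributed 10 of the 119 pairs. NM_201388 was at 1.66%, 1.45% and 0.44% in control and at 34.2%, 44.6% and 27.6% in induced mice, and NM_201389 was at 1.43%, 1.05% and 1.1% and at 46.3%, 53.8% and 38.5%. NM_201385 was at 12.8%, 20.01% and 17.7% and at 16.1%, 26.5% and 25.4% (adjusted p = 0.394, not passed). NM_201390 and NM_201391 stayed at 0.41% or less.

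In short fragments plectin promoters therefore fell into 2 that rose, 1 that was intermediate in both groups and 2 near 0. There 7 of the 10 pairs differed in change. Long fragments gave other levels, described below. NM_201389 gained 45.1 points more than NM_201390 (SE 4.07, adjusted p = 0.00173) and 10.7 points more than NM_201388 (SE 0.90, adjusted p = 0.00158). The difference between NM_201385 and NM_201388 (28.5 points, adjusted p = 0.0141) did not pass on leaving out control mouse 2, control mouse 3 or induced mouse 2 (adjusted p = 0.0501 to 0.0547). On an arcsine square root scale the differences of Bdnf, Hic1, Tcfap2b, Syne1 and 9030409G11Rik did not pass either (limma adjusted p = 0.286, 0.902, 0.0798, 0.152 and 0.155).

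In Gnas 2 promoters were at more than 50% in every control mouse. NM_001077507 was at 70.3%, 50.8% and 64.9% in control and at 89.9%, 85.0% and 93.5% in induced mice, NM_019690 at 60.2%, 64.0% and 65.5% and at 68.1%, 86.2% and 83.4%, and NM_001077510 at 5.58%, 4.96% and 4.41% and at 3.9%, 7.94% and 7.08%. Only NM_001077507 rose (adjusted p = 0.0293), and its change exceeded that of NM_001077510 by 26.2 points (SE 5.99, adjusted p = 0.0253). Both calls were lost without control mouse 3 or without induced mouse 1, 2 or 3 (adjusted p = 0.0501 to 0.0993).

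**Figure D3:**
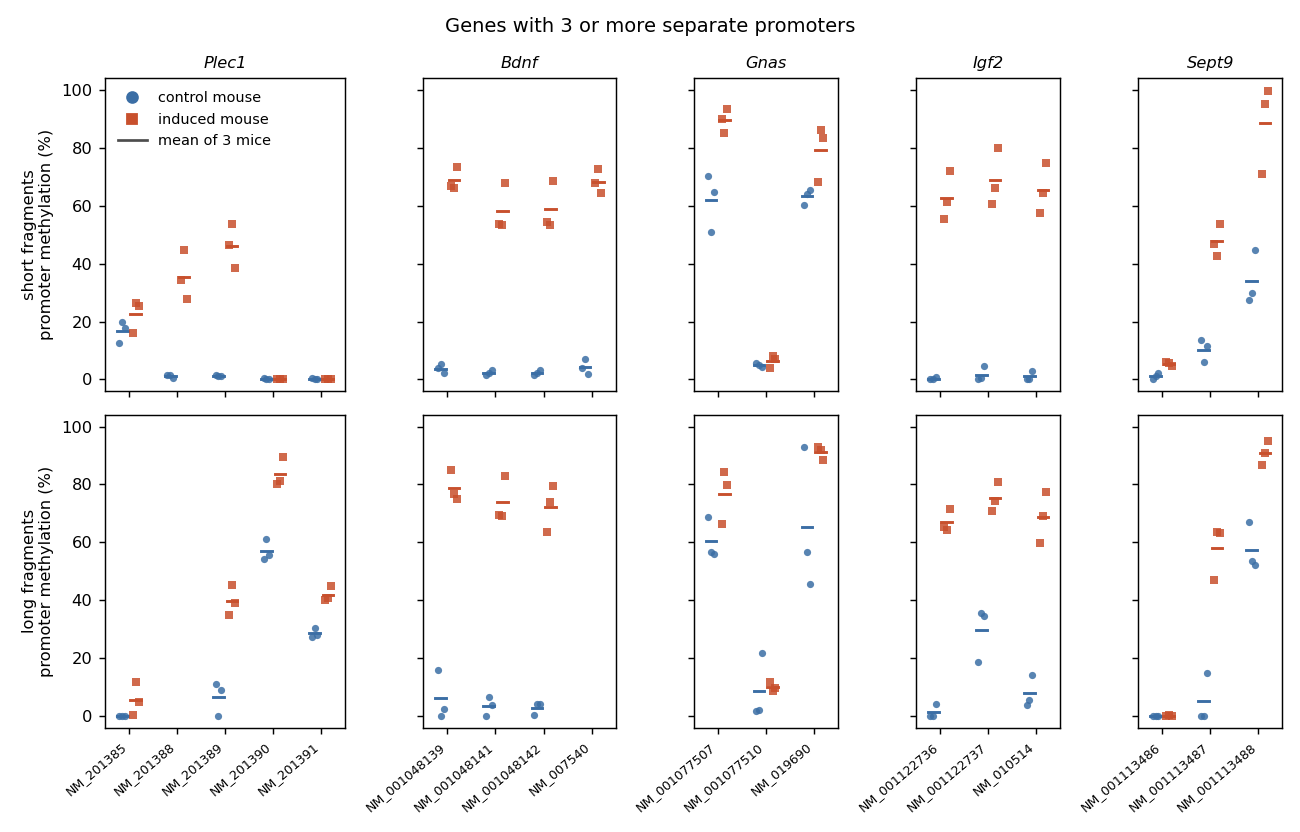
Promoter methylation (%) of the 5 genes with 3 or more separate promoters, short fragments above and long fragments below, for control mice (blue circles) and induced mice (orange squares), with means of 3 mice as lines; a gap marks a promoter not in all 6 long libraries. Bdnf and Igf2 promoters reach 53.4% or more in every induced mouse in the short fraction, the 3 Sept9 promoters are in the same order in all 6 short-fragment libraries, and NM_201390 of Plec1 is near 0 in short and at 54.3% or more in long fragments.

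Of the textbook genes with alternative promoters 6 were among the 99, with Ank1, Bdnf, Gnas, Igf2 and Tcf4 among them, and 12 of their 16 promoters rose, against 35 of 60 over the whole list. Ank1, the gene of the red cell cytoskeleton protein ankyrin 1, had NM_001110783 at 1.29%, 0.56% and 1.66% in control and at 56.2%, 61.8% and 71.1% in induced mice, and NM_031158 at 4.65%, 7.88% and 3.52% and at 55.4%, 55.0% and 67.3%. Their difference of 7.94 points (adjusted p = 0.0448) was lost without every mouse in turn but induced mouse 1 (adjusted p = 0.0643 to 0.118). The 2 imprinted genes, Gnas and Igf2, had 4 risen promoters of 6, against 15 of 34 over the whole list of imprinted genes. None of the 99 genes was on the lists of Wnt pathway genes, colon epithelium genes, immune cell markers or stromal, muscle and endothelial markers, of whose measured promoters 32 of 59, 6 of 30, 1 of 2 and 7 of 9 rose.

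The remaining members were mostly unmethylated. In 43 genes no promoter rose, and 40 of the 119 pairs had both promoters under 10% in both groups. A single promoter fell. Ovol2, which encodes a zinc finger factor of epithelial cells, had NM_026924 at 1.62%, 2.27% and 3.41% in control and at 0.05%, 0% and 0.53% in induced mice (adjusted p = 0.0369). NM_152947 was at 0.62%, 8.61% and 0% and at 1.41%, 6.46% and 7.51%. The fall was lost without control mouse 2 or any induced mouse (adjusted p = 0.0826 to 0.118), and in long fragments both promoters were at 0 in control and at 0.71% to 3.64% in induced mice.

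At the border of the rule stood genes whose promoters hardly differed. Ubtf, a factor of RNA polymerase I, differed by at most 0.05 points in any mouse, Rab43, a small GTPase, by at most 0.1 points and Tcf4, a basic helix-loop-helix factor, by at most 0.15 points. Just outside lay genes with identical rows, such as 1110012J17Rik, whose 2 rows were both at 1.18%, 0.13% and 0.58% in control and at 17.6%, 14.2% and 11.3% in induced mice. The 2 rows of 0610007P08Rik were at 0 in all 6 mice, and those of 0610007C21Rik at 0.15% or less. Ubtf, Rab43 and Tcf4 were under 1% at both promoters in every mouse.

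Within a mouse, the mean distance between promoters of a gene was larger in induced than in control mice. The highest minus the lowest promoter, averaged over the 99 genes, was 7.48, 8.40 and 8.50 points in control mice (8.13 ± 0.565, SD, n = 3) and 18.2, 19.9 and 19.9 points in induced mice (19.4 ± 0.982). The median over the genes was smaller, at 1.15 to 1.25 points in control and 5.71 to 6.98 points in induced mice. Over the 31 genes also separate in long fragments it was 15.2, 14.4 and 11.7 points in control (13.8 ± 1.84) and 23.9, 23.02 and 23.7 points in induced long-fragment libraries (23.5 ± 0.460). The groups did not overlap in either fraction, and this summary of chosen genes was given no test.

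**Figure D4:**
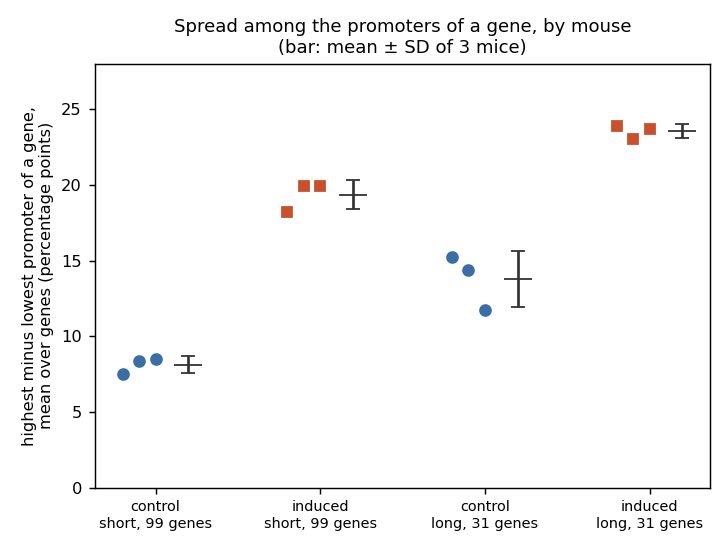
Highest minus lowest promoter of a gene in percentage points, averaged over 99 genes in short and 31 genes in long fragments, 1 point per mouse, with the mean ± SD of 3 mice beside it. Induced mice (orange squares) lie above control mice (blue circles) in both fractions, at 18.2 to 19.9 against 7.48 to 8.50 points in short fragments.

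The deposited files also give 1 value per gene, which in all 594 cases checked (99 genes in 6 short-fragment libraries) was the mean of the gene's listed promoter rows within 0.02 points. By this value 56 of the 99 genes rose, and none fell, where 27.6% of all 10027 genes rose and 0.0798% fell. It rose in all 33 genes with only risen promoters and in 22 of the 23 with some, and the median gene value in induced mice was 59.9% in the former and 19.4% in the latter. Arhgef7 stood at 24.2% ± 2.63 by gene (SD, n = 3), from 3 rows near 72.5%, 0.06% and 0.06%, and Rai1 at 46.6% ± 1.58 from rows at 92.6% and 0.503%. The exceptions, named after their values were seen, were Fbxl10, with a risen promoter at 3.52% and no risen gene value (limma adjusted p = 0.0886), and Limk2, whose gene value rose without a risen promoter. The rise of the Fbxl10 promoter NM_001003953 (limma adjusted p = 0.0293) did not pass on leaving out any control mouse or induced mouse 3 (adjusted p = 0.0997 to 0.106).

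Long fragments are libraries that the choice of genes did not use, although they come from the same mice. Of the 206 promoters 120 were in all 6 long-fragment libraries, and 46 of them rose (38.3%) and none fell, where 23.1% of all 6179 promoters rose and 0.0162% fell. With centring 48 were higher and 24 lower among the 115 separate promoters of long fragments, against 44 and 0 without. By accession 56 of the 120 rose in short and 40 in both fractions. In long fragments 45 genes of 6125 had separate promoters by the same rule, 31 of them among the 99. The difference in change passed in 21 of 69 long-fragment pairs (30.4%) from 14 genes, with 25 at an unadjusted p under 0.05. These 69 pairs were in turn taken because they differed in the long-fragment libraries. Of 55 such pairs of the 99 genes 17 passed, in 10 genes. Plec1 gave more of these 17 than any other gene, and pairs of a gene share promoters.

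For 44 pairs the difference in change could be set side by side. Of the 17 pairs that passed in short fragments 16 had the same sign in long fragments. Of these, 10 from 8 genes passed there too. With the replicate number added to the limma fit as a block, 0 of 69 long-fragment pairs passed. Over the 44 pairs the signs matched in 25, and Pearson's r was 0.741, given as a description since the pairs share mice and several share a gene.

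Dlgap4 repeated its split, and so did the pair deposited under Ece2, of which NM_025462 is now assigned to Eef1akmt4. In long fragments NM_146128 of Dlgap4 was at 5.92%, 9.18% and 6.0% in control and at 48.3%, 81.2% and 89.8% in induced mice while NM_001042487 stayed at 0.64% or less (difference 66.2 points, SE 11.6, adjusted p = 0.0143). It did not pass on leaving out control mouse 1, control mouse 2 or induced mouse 2 (adjusted p = 0.0509 to 0.0626). NM_139293 of Ece2 was at 0.47%, 3.69% and 2.3% and at 82.1%, 48.5% and 70.01%, and NM_025462 at 0 in 5 mice and at 2.04% in induced mouse 3 (difference 64.0 points, SE 8.92, adjusted p = 0.00778).

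In Sept9 the highest promoter was the same in both fractions. In long fragments NM_001113486 was at 0.18% or less, NM_001113487 at 0.11%, 0% and 15.0% in control and at 47.0%, 63.6% and 63.1% in induced mice, and NM_001113488 at 66.8%, 53.5% and 52.0% and at 86.7%, 90.8% and 95.1%. The gains of the latter promoters exceeded that of the first by 52.8 points (SE 6.73) and 33.4 points (SE 4.83), with adjusted p = 0.00726 and 0.00778. Where only 1 promoter of a gene was measured in long fragments, single values can still be read: NM_001113517 of Arhgef7 was at 0.04%, 2.89% and 0.57% in control and at 70.02%, 77.5% and 79.2% in induced mice, and NM_001111312 of Lrrfip1 at 0.05% or less and at 55.7%, 48.9% and 51.2%. Pacsin1, an endocytic adaptor named after its values were seen, passed in both fractions, with its promoter NM_178365 gaining 27.1 points more than NM_011861 in short and 29.5 points more in long fragments (adjusted p = 0.00118 and 0.00726).

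Among genes separate in long fragments only, Col18a1, which encodes a basement membrane collagen and was named after its values were seen, had NM_009929 at 0%, 0% and 2.09% in control and at 73.5%, 54.8% and 69.6% in induced mice. Its NM_001109991 was at 80.6%, 80.3% and 48.2% and at 68.8%, 81.7% and 85.6%. The difference of 56.3 points (adjusted p = 0.0365) did not pass without control mouse 1, without control mouse 2 or without any induced mouse (adjusted p = 0.0689 to 0.105).

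The fractions measured different fragments of a promoter, and for 10 of the 44 pairs (22.7%) the difference in change itself differed between them (limma with the mouse as a block, adjusted over the 44 pairs). Fbxl12 was the clearest. Its NM_013911, at 44.3% to 55.4% in induced mice by short fragments, was at 2.4% or less in all 6 mice by long fragments, and the difference in change moved from 47.0 to 0.34 points (change between fractions 46.7 points, SE 3.30, adjusted p = 1e-05). Plec1 went the other way: NM_201390, near 0 in short fragments, was at 54.3%, 61.0% and 55.7% in control and at 80.3%, 81.3% and 89.6% in induced mice by long fragments. NM_201391 held 0.50 of these values in every mouse (ratios of 0.4999 to 0.5012). Both promoters rose in long fragments (limma adjusted p = 0.00754 and 0.00745). NM_201385, intermediate in short fragments, was at 0 in every control mouse by long fragments. In induced mice it was at 0.25%, 11.8% and 4.77% there.

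**Figure D5:**
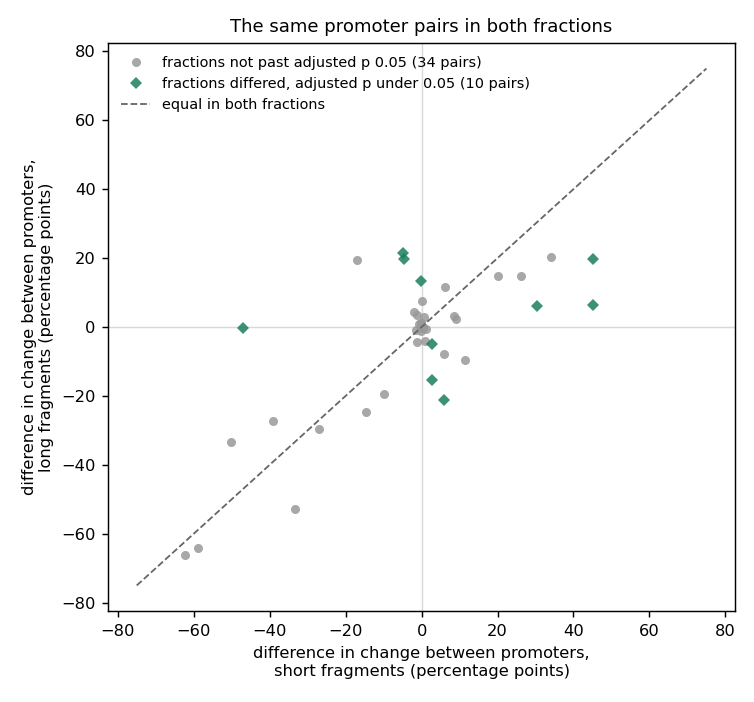
Difference in change between 2 promoters of a gene (percentage points) in short fragments on the horizontal and in long fragments on the vertical axis, for 44 pairs. Green diamonds are the 10 pairs for which the fractions differed, among them Fbxl12 at -47.0 points in short and -0.34 in long fragments, and grey circles the other 34 pairs.

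Library-wide values bear on these results as follows. Mean methylation over all separate promoters was 3.82% to 4.39% in control and 16.4% to 18.5% in induced short-fragment libraries, and 4.83% to 5.50% and 18.4% to 21.3% in long-fragment libraries. The libraries held 11684 to 12214 promoter rows in short and 8252 to 9195 in long fragments. Depth is unknown, since the files give no coverage, and a value of 0 or 100% may rest on few reads. The 4 measured of 8 epithelial markers were at 0% to 1.59% in control and at 0.06% to 1.19% in induced mice, 1 of 7 immune markers (Lck) at 0.37% and 0.113%, and 2 of 7 stromal markers (Pdgfra and Myh11) at 0.473% and 9.75% in control and between 13.5% and 76.1% in induced mice. Promoter methylation does not show which cells were present, and the part of cell composition in these results was not tested.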

How the data were processed

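Reduced representation bisulfite sequencing was done on MspI-cut colon epithelial DNA of 6 mice, with a short and a long fragment library for each. Per the file headers, the deposited values are the mean CpG methylation fraction of each RefSeq promoter and of each gene, made by the authors, with 1 table per library. The sources used here do not give the aligner, the build, the promoter window, the coverage or the bisulfite conversion, and depth and its precision are unknown. The deposited fractions were multiplied to percent. Only promoters found in each of the 6 libraries of a fraction entered, and rows of a gene with identical values were merged.

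Changes were fitted with limma 3.58.1 (R 4.3.3) on percent, with Benjamini-Hochberg adjustment over all promoters, all genes or all pairs and a threshold of 0.05. Pairs were tested on the difference between promoters in each mouse. The difference between fractions used 12 libraries with the mouse as a random block (statmod 1.5.0). Short and long libraries of a group with the same replicate number were taken as 1 mouse. The consensus correlation of this block was 0.170. The labels give the mice as separate samples. The fits were also run on simulated data with independent normal scatter and known changes. In the data pairs of a gene share promoters, and the simulation is not used as support here. The members and the gene lists were chosen with earlier results of these data known.

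Genes were named by rule. These were up to 14 with the largest called difference between promoters, up to 5 with all promoters risen, up to 4 with the largest control difference and the 3 with the most promoters. To these came up to 8 textbook genes, up to 4 of each other list, fallen promoters, 3 genes on each side of the selection rule and up to 4 pairs that differed most between fractions. One item that the rule names is not reported here. Other names are said to be chosen after their values were seen. Alternatives were leaving out each mouse, an arcsine scale, the replicate number as a block, a variance trend, centring, other presence and merging rules, 1 pair per gene, no X-linked genes and another measure of spread. Promoter sequences are from RefSeq (GRCm38.p6), matched by gene.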

Additional observations from a re-analysis of the deposited data

Results flagged for a closer look

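For 10 pairs of promoters the difference in change, induced minus control, was not the same in long as in short fragments by limma's interaction over 44 pairs. Values are long minus short, in percentage points, for the first promoter minus the second. In Fbxl12, NM_001002846 minus NM_013911 gave 46.7 points (adjusted p = 1e-05). In Plec1, the plectin gene, NM_201390 minus NM_201391 gave 13.5 points (adjusted p = 0.000493) and NM_201389 minus NM_201390 gave -38.9 points (adjusted p = 0.00485). In Igf2, NM_001122736 minus NM_001122737 gave 24.4 points (adjusted p = 0.00705). These 4 passed under every alternative run. In long fragments NM_201391 held 0.50 of the value of NM_201390 in every mouse, for a reason not known, so the difference of 13.5 points adds little to the change of NM_201390 itself. At Igf2 the promoter NM_001122737 was at 0.16%, 0.37% and 4.5% in short and at 18.7%, 35.7% and 34.4% in long fragments of control mice.

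The other 6, of which 5 are given here, did not pass under every alternative. In the calcium channel subunit gene Cacnb3, NM_001044741 minus NM_007581 gave -24.1 points (limma adjusted p = 0.00705, and 0.0506 without control mouse 1). Its promoter NM_001044741 was at 11.6%, 9.34% and 11.2% in short and at 55.6%, 57.0% and 52.1% in long fragments of control mice. In Plec1, NM_201385 minus NM_201390 gave -27.1 points (adjusted p = 0.00705, and 0.0527 without control mouse 1). NM_201389 minus NM_201391 gave -25.4 points (adjusted p = 0.0141, and 0.0814 and 0.0699 without control mouse 1 or 3). In Igf2, NM_001122737 minus NM_010514 gave -17.98 points (adjusted p = 0.0203), not passed without control mouse 3, induced mouse 2 or induced mouse 3 (adjusted p = 0.0684 to 0.108) nor when the fractions were subtracted in each mouse (adjusted p = 0.0846). In Fbxl10, NM_001003953 minus NM_013910 gave -7.58 points (adjusted p = 0.0381), passed only with all mice or without induced mouse 3 (adjusted p = 0.0536 to 0.163 otherwise). Plec1 gives 4 of the 10 pairs and Igf2 gives 2, and pairs of a gene share promoters.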

How the results depend on the processing

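The 48 short-fragment pairs became 33 to 44 without 1 mouse, 46 with the replicate number as a block and 42 on the arcsine scale. With rows of a gene that lay within 1 point of each other merged, 47 of 94 pairs passed. Of 36 named pair results in short fragments 21 passed under every alternative, as did 39 of 58 promoter results, and none reversed. Long-fragment pairs, 21 in all, became 10 to 17 without 1 mouse (10 without control mouse 2 and 13 without induced mouse 2) and 13 with 1 pair per gene. With the replicate block 0 of them passed in limma (adjusted p = 0.0603 to 0.145), with 23 at an unadjusted p under 0.05. Deviations of same-numbered control and induced mice were hardly correlated (correlations of -0.0505 to 0.0700). With so few mice these correlations cannot tell whether the numbers mark matched mice. The block left 71 of 95 promoter calls in short fragments, 24 of 44 in long fragments and 42 of 56 gene values. Median centring gave 72 long-fragment promoters, 48 higher and 24 lower, and 137 in short fragments. The 10 pairs that differed between fractions became 5 to 14 without 1 mouse, 5 being without control mouse 1, 7 with the fractions subtracted in each mouse and 9 without the mouse block. As a standard deviation over promoters, the spread was 5.53 (control) and 13.2 (induced) points in short and 8.23 and 14.4 in long fragments. Restricting pairs to distant starts was not run, since starts are not tied to accessions in the tables used. Without coverage, counting error at single promoters is unknown.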
